A study of Homo sapiens with 8 samples.

Results

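Mitotic HepaRG cells were the 502 cells with the highest score for genes of late G2 and mitosis among 7172 ranked cells of a Parse Evercode experiment, in which fixed cells are barcoded by repeated splitting and pooling, and a unique molecular identifier (UMI) keeps copies of 1 RNA molecule from being counted again. The score was the mean of the natural log of 1 plus the UMIs per 10,000 over MKI67, CENPF, CCNB1, PLK1, AURKB, BUB1, DLGAP5 and HJURP, and the top 7% of cells were taken. A cell was ranked if it had at least 500 genes and at most 20% of its UMIs from mitochondrially encoded genes, and if its culture had received neither rotenone nor 20 µM cycloheximide. The matrix held 12976 cells, of which 1867 came from those cultures and a further 3937 exceeded the mitochondrial limit. The remaining 6670 ranked cells, called the other cells here, served as the reference.

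HepaRG is a human liver cell line that differentiates into hepatocyte-like and biliary-like cells. The differentiated cells were held in culture for a week and exposed for 24 hours to brefeldin A (0.001, 0.01 and 0.1 µM), cycloheximide (0.2 and 2 µM), etoposide (0.25, 2.5 and 25 µM), tert-butylhydroquinone (tBHQ; 3, 30 and 300 µM), troglitazone (50 µM), tunicamycin (0.001, 0.01 and 0.1 µM), medium alone (media) or the vehicle dimethyl sulfoxide (DMSO), in which the chemicals were dissolved. Treatments were read from the sample names of the deposited cell table, because each of the 8 deposited libraries is an aliquot of all the pooled cells, and the labels list lower troglitazone doses than those names, so that dose is uncertain. The names also carry a run number that no source used here defines and a replicate number, and each name was counted as a culture. The study states 1 biological replicate per condition for its main data, made on another platform. Whether the cultures used here are biological replicates was not stated in the sources used. The p-values therefore measure the spread between these cultures, which may be technical.

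Cells that enter mitosis first copy their DNA in S phase and then accumulate cyclin B with its kinase CDK1 in G2. The chromosomes condense, their kinetochores attach to the spindle under the watch of the spindle checkpoint, and the anaphase-promoting complex finally degrades the cyclins and securin. Most hepatocytes in the adult liver are out of the cycle. Many G2 and M genes share promoter elements, the cell cycle homology region (CHR, with the core TTTGAA) and CCAAT boxes, which the DREAM complex, MYB-MuvB and NF-Y bind, whereas many S phase genes carry E2F sites.

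The 8 score genes chose the cells, so their values are a description of that choice and were not tested. MKI67, a coat of mitotic chromosomes, averaged 14.9 UMIs per 10,000 in mitotic cells and 0.658 in other cells. The kinetochore protein CENPF averaged 14.5 UMIs per 10,000 in mitotic cells and 0.673 in other cells, and the checkpoint kinase BUB1 4.05 in mitotic and 0.151 in other cells. The spindle protein DLGAP5 averaged 3.09 against 0.0996 UMIs per 10,000 in other cells, the centromere chaperone HJURP 2.58 against 0.0863, and cyclin B1 (CCNB1) 1.74 against 0.0572. The mitotic kinase AURKB averaged 0.949 in mitotic and 0.0377 in other cells, and the kinase PLK1 0.877 in mitotic and 0.0310 in other cells. All 8 genes were detected in 400 mitotic cells, and another 79, 21 and 2 mitotic cells had 7, 6 and 5 of them, while 234 other cells also had all 8. A mitotic cell had a median of 202.5 UMIs of these genes, against 1 UMI in the other cells.

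The score had no gap where the cells were divided. The 2 lowest scores among mitotic cells were 1.10183 and 1.10346, and the 2 highest among the other cells were 1.09829 and 1.09688. Within 0.1 of that boundary lay 86 mitotic and 92 other cells, so the class is the upper end of a range of scores and not a cell type. The median score was 1.399 in mitotic cells and 0.0202 in other cells, and 36.9% of the ranked cells scored 0.

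**Figure D1:**
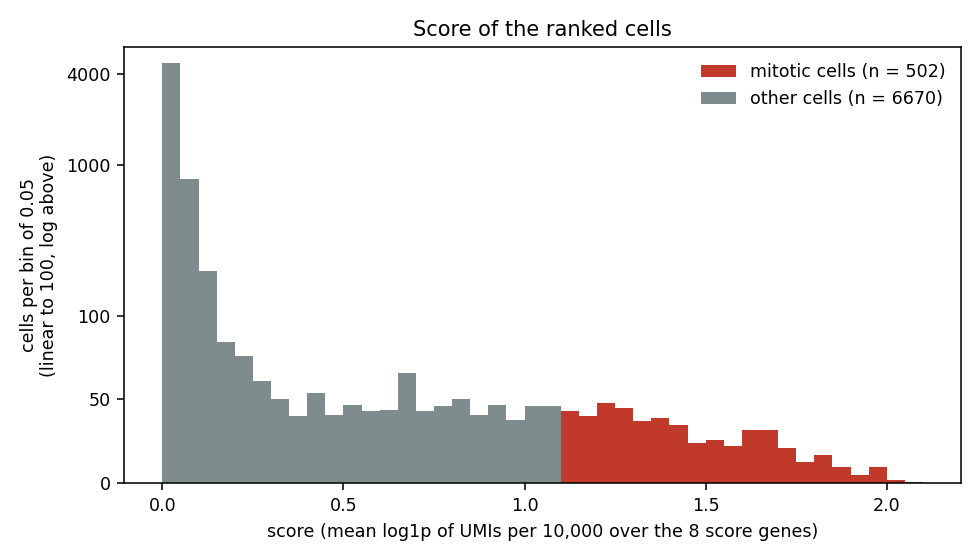
Histogram of the score of the 7172 ranked cells, with mitotic cells above the boundary and the other cells below it. The x axis is the mean natural log of 1 plus UMIs per 10,000 over 8 genes. The y axis is the number of cells, linear at low counts and log above. The counts run on across the boundary without a gap, and the scores reach 2.06.

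Promoters of 4 genes that hold both elements are shown in full as examples: PLK1 from the score genes, and CDC20, TOP2A and PIF1 from genes that rose without being used in the score. AFM, a serum protein gene that fell and whose promoter holds neither, is the contrast. Each is the 250 bases before the RefSeq start in GRCh38.p14, printed 5′ to 3′ on the strand of the gene, with TTTGAA and CCAAT matches on either strand (TTCAAA and ATTGG when reversed) in capitals. PLK1 is at chr16:23678639-23678888 on the plus strand, CDC20 at chr1:43358731-43358980 on the plus strand, TOP2A at chr17:40417897-40418146 on the minus strand, PIF1 at chr15:64825648-64825897 on the minus strand and AFM at chr4:73481495-73481744 on the plus strand.
PLK1: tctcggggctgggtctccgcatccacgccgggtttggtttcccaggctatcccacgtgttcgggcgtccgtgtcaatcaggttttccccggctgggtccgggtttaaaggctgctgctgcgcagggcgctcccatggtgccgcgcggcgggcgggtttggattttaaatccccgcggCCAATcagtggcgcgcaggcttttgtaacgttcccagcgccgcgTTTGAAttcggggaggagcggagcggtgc
CDC20: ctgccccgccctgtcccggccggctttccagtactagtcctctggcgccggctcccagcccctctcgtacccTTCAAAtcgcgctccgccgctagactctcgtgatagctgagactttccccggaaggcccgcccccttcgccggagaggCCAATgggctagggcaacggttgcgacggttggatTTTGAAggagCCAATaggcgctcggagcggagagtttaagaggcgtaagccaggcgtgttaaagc
TOP2A: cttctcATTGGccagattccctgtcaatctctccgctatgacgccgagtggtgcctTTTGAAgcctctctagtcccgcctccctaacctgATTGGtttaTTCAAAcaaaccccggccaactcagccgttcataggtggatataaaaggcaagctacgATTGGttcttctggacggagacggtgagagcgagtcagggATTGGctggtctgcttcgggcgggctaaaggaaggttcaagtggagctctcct
PIF1: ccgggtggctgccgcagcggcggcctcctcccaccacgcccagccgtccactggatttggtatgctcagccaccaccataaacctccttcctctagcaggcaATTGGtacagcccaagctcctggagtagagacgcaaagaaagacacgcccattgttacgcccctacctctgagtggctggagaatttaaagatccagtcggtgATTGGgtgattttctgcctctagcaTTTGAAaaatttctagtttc
AFM: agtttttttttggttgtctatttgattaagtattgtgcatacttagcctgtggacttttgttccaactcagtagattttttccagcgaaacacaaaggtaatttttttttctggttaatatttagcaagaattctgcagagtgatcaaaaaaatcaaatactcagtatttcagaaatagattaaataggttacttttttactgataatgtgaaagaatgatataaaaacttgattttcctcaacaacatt

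The CHR core and CCAAT stood together in the PLK1, CDC20, TOP2A and PIF1 promoters, and neither was in the AFM window. Both were present in only 4 of the 8 score gene promoters and 8 of 17 promoters of the largest rises. Of all promoters, 4.85% held both. CCAAT occurred in 8 of the 8 score gene promoters and TTTGAA in 4 of them. Among the 20 genes with the largest rises, 17 had a RefSeq promoter, of which 8 (47.1%) held TTTGAA and 12 (70.6%) CCAAT, against 13.6% and 33.04% of all 27305 promoters. In the spindle and cytokinesis list 14 of 29 promoters (48.3%) held TTTGAA, as did 9 of 18 in the list of G2 and M regulators and 1 of 46 (2.17%) in the replication and S phase list. CCAAT was in 24 of those 46 promoters (52.2%). The replication-dependent histones, also genes of S phase, held TTTGAA in 11 of 38 promoters (28.9%) and CCAAT in 32 (84.2%). The match did not follow the direction of change in every list, since TTTGAA was in 3 of 23 kinetochore promoters, and in 4 of 9 stellate (44.4%) and 4 of 15 hepatocyte marker promoters (26.7%). The E2F form GGCGGGAA, also sought on both strands, occurred in 11 of those 46 S phase promoters (23.9%), in 1 of the 29 spindle promoters (3.45%) and in 2.77% of all promoters. The 9 available promoters of the 10 genes with the largest falls held TTTGAA in 1 and CCAAT in 5. These are matches of letters and not binding sites, and the shares were not tested.

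Gene levels were compared between mitotic and other cells within 10 cultures that had at least 10 mitotic and 30 other cells, 8 of them of run 3. UMIs were summed per culture and class, scaled to a common total (counts per 1000000 UMIs, CPM) and tested with edgeR's quasi-likelihood test with the culture as a block and Benjamini-Hochberg adjustment. The sums held 867008 to 13507083 UMIs for mitotic cells and 5758709 to 69342002 UMIs for other cells, and the deepest mitotic sum, of 0.001 µM tunicamycin in run 3, came from 235 cells while the others came from 11 to 30. Of 19873 genes tested, 4579 rose in mitotic cells (23.0%) and 4801 fell (24.2%), so 47.2% were called, and in 2071 genes (10.4%) the levels of the 2 classes did not overlap. Of the calls 48.8% were rises, against 35.3% with factors from the trimmed mean of M values (TMM), and over the 2 cultures outside run 3 there were 925 rises and 837 falls. Because the cells were picked by counts from the same cells, these calls describe what moved with the score, and the counts of each gene group are to be read against those background shares.

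Mitotic cells also carried somewhat more RNA counts. The median UMIs per cell were higher in mitotic cells in 9 of 10 cultures, with a median over cultures of 45941 in mitotic and 35536 in other cells (mean log2 ratio 0.27, SD 0.25, adjusted p = 0.0143 by a two-sided permutation test that flips signs, n = 10). The median number of genes was 8668 in mitotic cells and 7496 in other cells, higher in 9 of 10 cultures (mean log2 ratio 0.17, SD 0.12, adjusted p = 0.0113 by the same permutation test). The mitochondrial share differed by 0.0021 percentage points on average (SD 1.42) and was higher in mitotic cells in 5 of 10 cultures (permutation p = 0.996). Members were most frequent at medium depth, at 13.9% of the cells in decile 6 of UMIs per cell, against 1.11% in decile 1 and 1.67% in decile 10. The score was scaled by the UMIs of each cell, and membership varied with depth. The p-values of UMIs and genes per cell therefore cannot tell a trait of mitotic cells from an effect of how the cells were chosen. The mitochondrial share was compared only among cells within the mitochondrial limit. When every cell was thinned to 5000 UMIs before scoring, 86.7% of the mitotic cells were chosen again. Of all the cells of the matrix, 1735 shared their well barcodes with a cell of another library, 90 of them mitotic, and 11 mitotic cells shared theirs with another mitotic cell.

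The regulators of G2 and M rose together. Of 24 kinases, cyclins and regulators tested, 23 rose, none fell and the median log2 fold change was 3.04, against -0.015 over all genes. CDK1, the kinase that drives entry into mitosis, had 116, 144 and 174 CPM at the lowest, median and highest culture in mitotic cells, against 7.01, 13.05 and 17.9 CPM in other cells. CCNA2, its cyclin in S phase and G2, had 85.6, 112 and 144 CPM in mitotic cells and 6.91, 11.4 and 18.8 CPM in other cells. For both genes the lowest mitotic sum lay above the highest sum of other cells, with log2 fold changes of 3.51 ± 0.087 (SE, adjusted p = 5.77e-16) for CDK1 and 3.32 ± 0.11 (adjusted p = 1.25e-14) for CCNA2. NEK2, a kinase that splits the centrosomes, rose by 3.78 on the log2 scale, and CDC25C, the phosphatase that activates CDK1, by 3.55. The member that did not pass the test was CCNB2, the second mitotic B-type cyclin, listed at 0.947 ± 0.945 CPM in mitotic and 1.23 ± 0.406 CPM in other cells (SD, n = 10, adjusted p = 0.427 by edgeR). CCNB2 had 0 to 3 UMIs in the mitotic sums of 9 cultures and 11 UMIs in the deepest, and few in either class, so whether its reads were lost in the counting was not tested and its value bears little on the list.

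Kinetochore, checkpoint and spindle genes showed the same uniform pattern. In the kinetochore and centromere list 29 of 30 members rose (median log2 2.33), and the exception was MIS12, at 28.7 ± 7.11 CPM in mitotic and 25.1 ± 4.57 CPM in other cells (adjusted p = 0.131 by edgeR). CENPE, the kinesin that carries chromosomes to the spindle equator, had 590, 739 and 878 CPM in mitotic cells, against 32.5, 57.7 and 91.0 CPM in other cells. Levels of CENPE did not overlap, and its log2 fold change was 3.62. All 14 members of the chromosomal passenger and spindle checkpoint list rose (median log2 3.26). CDCA8, the passenger subunit borealin, rose by 3.67 and TTK, the kinase that starts checkpoint signalling, by 3.62 on the log2 scale. BUB1B, which inhibits CDC20 as part of the checkpoint complex, had 232 ± 24.4 CPM in mitotic and 22.4 ± 7.27 CPM in other cells (SD, n = 10), without overlap.

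All 33 spindle and cytokinesis genes rose, with a median log2 fold change of 3.26, and for all 33 the levels of the 2 classes did not overlap. Their summed level had a lowest, median and highest value of 7133, 9114 and 10375 CPM in mitotic cells, against 536, 958 and 1228 CPM in other cells. TROAP, a protein needed for spindle assembly, had 57.3, 123 and 154 CPM in mitotic cells and 2.68, 7.26 and 13.2 CPM in other cells (log2 4.06 ± 0.12, SE). The kinesins among the 20 largest rises act at different stages. KIF2C depolymerizes microtubules at kinetochores (log2 3.71), KIF18A limits chromosome movement (3.64), and KIF14 (3.68) and KIF20A (3.66) act in cytokinesis. The microtubule assembly factor TPX2 rose by 3.56, the midbody kinase CIT by 3.57, GTSE1 by 3.58 and ARHGAP11A by 3.53. Of 12 tubulin and tubulin regulator genes, 8 rose, 1 (TUBB2B) fell and 3 were not called. STMN1, which sequesters tubulin, rose by 2.69, TUBA1B by 2.19 and TUBB by 2.16.

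The largest rise of any gene that met the rule for naming was that of PIF1, a helicase of G-quadruplex DNA and telomeres (chr15:64815632-64825668). It had 52.0, 118 and 156 CPM in mitotic cells, against 2.32, 4.85 and 9.43 CPM in other cells, a log2 fold change of 4.31 ± 0.16 (adjusted p = 5.33e-14). TOP2A, the topoisomerase that untangles sister chromatids and the target of etoposide (chr17:40388525-40417896), had 1108, 1506 and 1826 CPM in mitotic cells and 56.4, 118 and 177 CPM in other cells. Neither gene overlapped between the classes, and TOP2A rose by 3.63 on the log2 scale (adjusted p = 3.14e-15). All 16 genes of the chromosome condensation list rose (median log2 2.48), among them the condensin subunit NCAPG by 3.31 and CDCA2, which brings a phosphatase to chromatin, by 3.29. DEPDC1 rose by 3.68, NDC80, which binds microtubules at the kinetochore, by 3.51 and CDCA3, which triggers the destruction of WEE1, by 3.61.

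**Figure D2:**
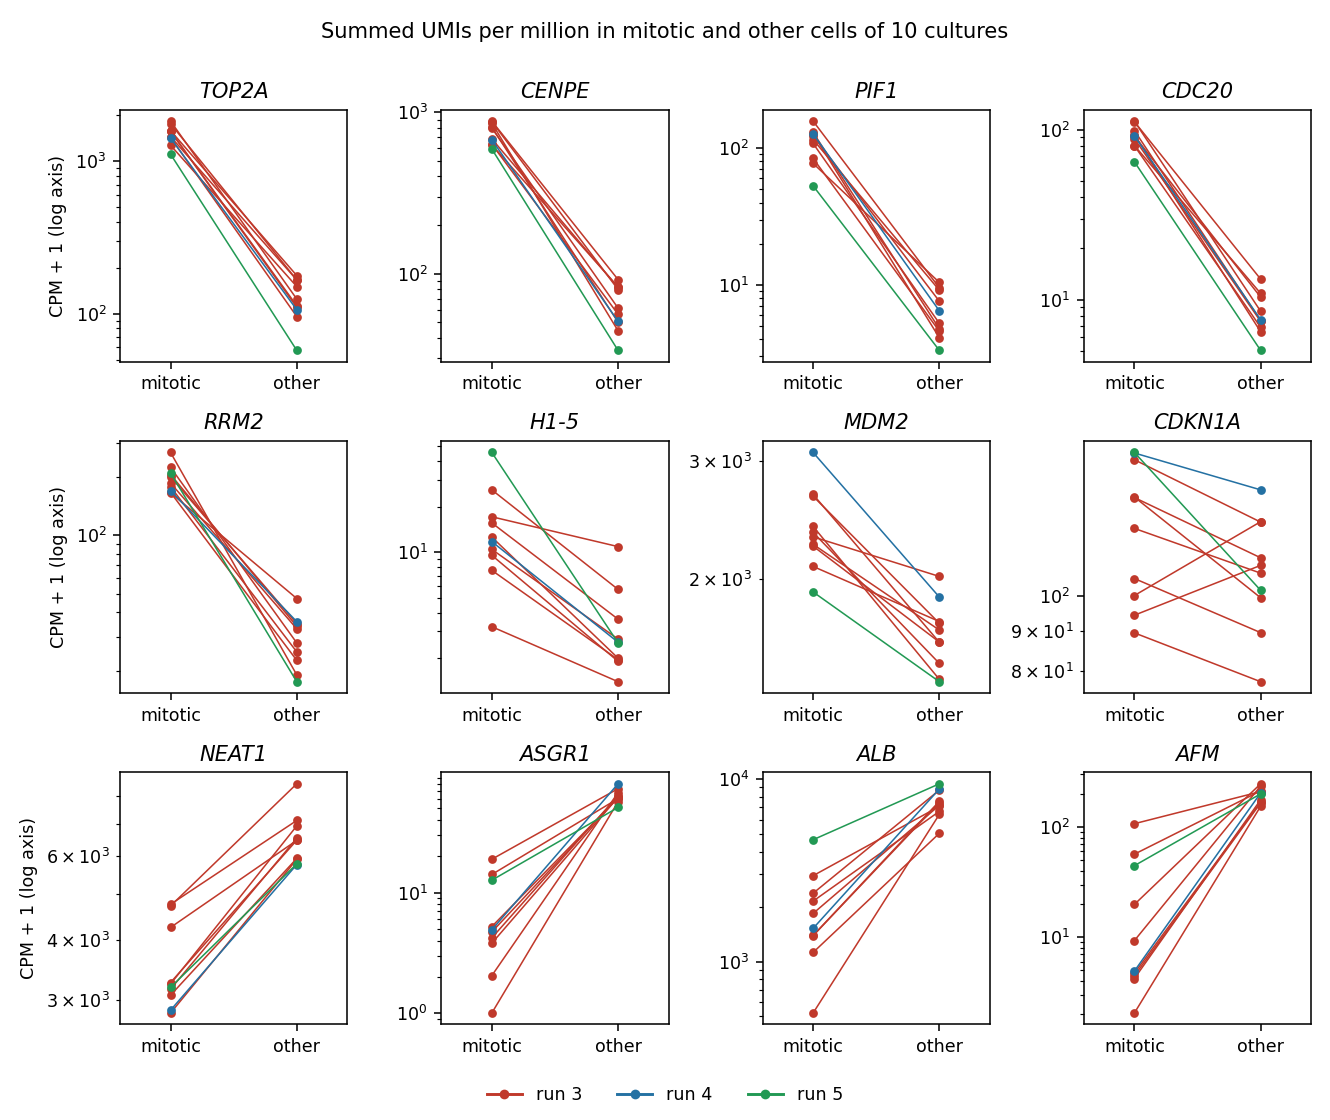
Levels of 12 genes (CPM plus 1, log axis) in the mitotic cells (left) and the other cells (right) of the 10 cultures, with a line joining the 2 sums of a culture, colored by run. TOP2A was at 1108 to 1826 CPM in mitotic cells and 56.4 to 177 CPM in other cells, and ALB at 521 to 4648 CPM in mitotic cells and 5041 to 9415 CPM in other cells.

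The members of the anaphase-promoting complex list did not move as one. CDC20, the activator that starts anaphase (chr1:43358981-43363203), had 63.7, 90.8 and 111 CPM in mitotic cells, against 4.04, 6.58 and 12.2 CPM in other cells, without overlap and with a log2 fold change of 3.65. The inhibitor FBXO5 rose by 3.01, and FZR1, the activator used at mitotic exit and in G1, by 1.74. Core subunits moved less, with CDC27 at a log2 rise of 1.24, and 2 fell, ANAPC4 by 0.28 and ANAPC5 by 0.21 on the log2 scale. ANAPC4 had 44.7 ± 6.74 CPM in mitotic and 54.0 ± 4.12 CPM in other cells (SD, n = 10), with overlapping levels. In all, 12 of the 18 members tested rose, 2 fell and 4 were not called (median log2 0.46). Without run 3, 6 of 18 rose and none fell.

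Genes of DNA replication mostly rose, though not as one. Of 55 S phase genes 43 rose, 1 fell and 11 were not called, with a median log2 fold change of 1.07. Their summed level was 1826 to 2484 CPM in mitotic cells (median 1993), against 680 to 1026 CPM in other cells (median 870). RRM2, the regulated subunit of ribonucleotide reductase, had 197 ± 31.9 CPM in mitotic and 28.7 ± 9.05 CPM in other cells (SD, n = 10; log2 2.82), DBF4, which activates the origin kinase CDC7, rose by 2.53 and thymidine kinase 1 (TK1) by 2.41. UNG, which removes uracil from DNA, fell to 11.0 ± 5.16 CPM in mitotic cells, against 21.1 ± 2.52 CPM in other cells (log2 -0.93 ± 0.15, SE). The 11 members not called included the helicase subunits MCM5 and MCM6, the polymerase subunits POLA1 and POLE2, the transcription factor E2F1 and both E-type cyclins, CCNE1 and CCNE2. Without run 3, 23 of the 55 rose and none fell.

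Of 20 homologous recombination and Fanconi genes 19 rose (median log2 1.98), with PALB2 not called at 19.3 ± 5.18 CPM in mitotic and 16.9 ± 1.69 CPM in other cells (adjusted p = 0.22 by edgeR). The glycosylase NEIL3 rose by 3.17, RAD51AP1, which aids strand invasion, by 2.63 and the nuclease subunit EME1 by 2.58 on the log2 scale. Replication-dependent histone genes, transcribed in S phase, rose in 24 of the 27 members tested of 43 (median log2 1.94). Without run 3, 12 of 23 members tested rose. Their summed level was 249, 338 and 858 CPM in mitotic cells and 120, 150 and 234 CPM in other cells at the lowest, median and highest culture. The named members were scarce: H2BC13 averaged 1.36 ± 1.22 CPM in mitotic and 0.115 ± 0.122 CPM in other cells, and H1-5 14.9 ± 12.1 CPM in mitotic and 2.52 ± 2.86 CPM in other cells (SD, n = 10). H2BC4 and H2BC18 fell, by 0.42 and 0.84 on the log2 scale, and both turned to the opposite sign, at 0.30 and 0.017, without run 3. Reads of near-identical histone genes may be divided among copies, so single members are uncertain.

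Genes of G1 were divided. Of 16 G1 cyclins, kinases and partners 9 rose, 3 fell and 4 were not called (median log2 0.29). CDK2, which pairs with cyclins E and A, rose by 1.68, the pocket protein RBL1 by 0.94 and SKP2, which marks CDKN1B for destruction, by 0.75. The falls were those of CDK6, a kinase of D-type cyclins (169 ± 21.2 CPM in mitotic and 217 ± 7.68 CPM in other cells), CCND2, a D-type cyclin (24.2 ± 4.31 and 36.5 ± 4.25 CPM in mitotic and other cells), and TFDP2, a partner of E2F factors (72.7 ± 7.98 and 102 ± 6.44 CPM in mitotic and other cells; SD, n = 10). All 3 were lower in mitotic cells in 10 of 10 cultures, and only TFDP2 did not overlap between the classes. Without run 3, 3 of the 16 rose and none fell.

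In the list of CDK inhibitors and p53 targets 20 of 29 members tested rose, 2 fell and 7 were not called (median log2 0.48). The 3 largest rises were CDKN3, a phosphatase that acts on CDKs and is itself made in G2 and M (3.41 on the log2 scale), and the INK4 inhibitors CDKN2C (2.71) and CDKN2D (2.58). MDM2, the p53 ubiquitin ligase, had 1913, 2331 and 3092 CPM in mitotic cells, against 1405, 1644 and 2018 CPM in other cells. Its levels overlapped between cultures, yet it rose by 0.53 ± 0.059 on the log2 scale (adjusted p = 4.23e-07), and without run 3 the value was 0.58 with an adjusted p of 0.128 over 2 cultures. CDKN1A, the p21 inhibitor, averaged 123 CPM in mitotic and 107 CPM in other cells, with a log2 difference of 0.19 ± 0.078 (adjusted p = 0.0492), and with TMM factors it was 0.064 with an adjusted p of 0.544. TP53INP1 fell by 0.79 and the death receptor TNFRSF10B by 0.60 on the log2 scale. Without run 3, 8 of 29 members rose and none fell.

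**Figure D3:**
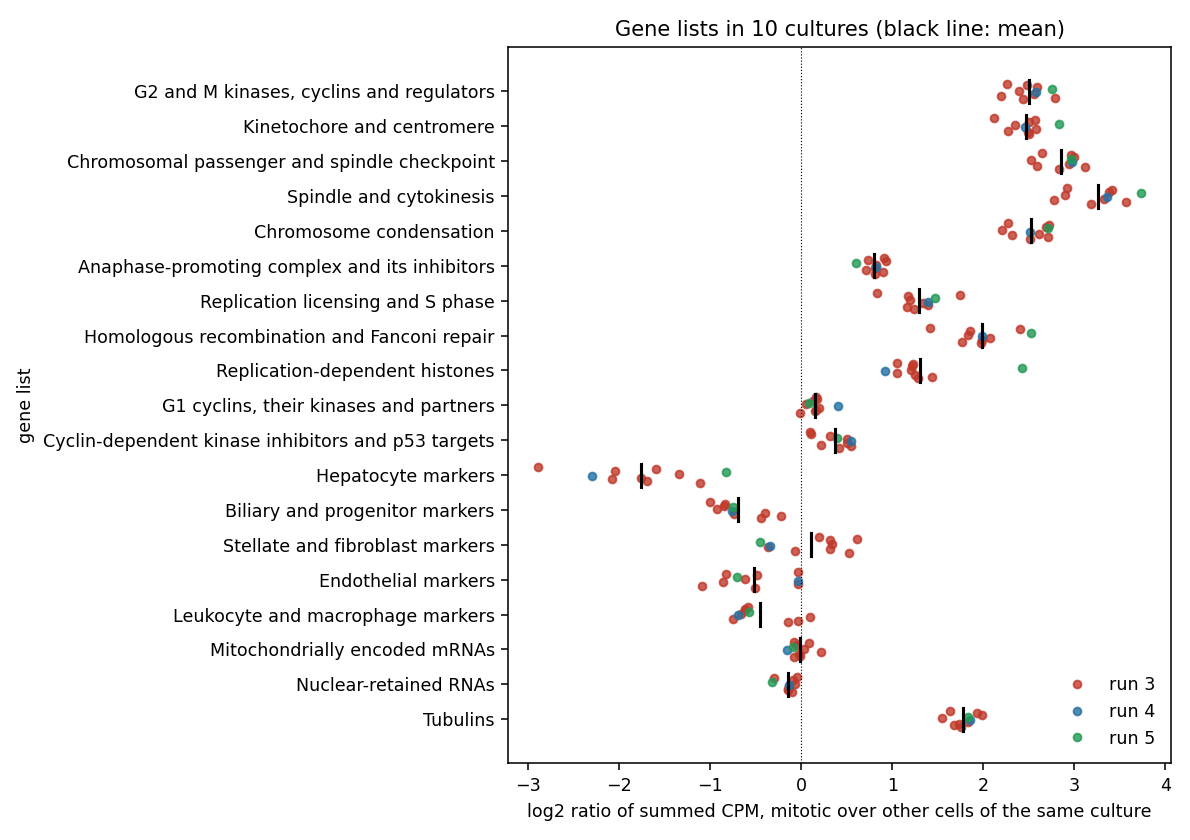
Log2 ratio of the summed CPM of each of the 19 gene lists (down the page), mitotic over other cells of the same culture (x axis; 1 point per culture, colored by run; black line, mean of 10 cultures). The spindle list is above 0 in all 10 cultures with a mean of 3.26, and the hepatocyte list is below 0 in all 10 with a mean of -1.77.

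The hepatocyte genes went the other way. All 23 hepatocyte markers tested fell (median log2 -2.32), where 24.2% of all genes did, and without run 3 there were 15 falls among 22. Their summed level was 1866, 4472 and 11981 CPM in mitotic cells at the lowest, median and highest culture, against 11901, 16437 and 21291 CPM in other cells, and within a culture it was lower in mitotic cells in 10 of 10. Albumin (ALB), the main plasma protein, had 521, 1676 and 4648 CPM in mitotic cells and 5041, 7305 and 9415 CPM in other cells. Its levels did not overlap, and the fall was 2.08 ± 0.17 on the log2 scale (SE, adjusted p = 8.96e-09). The fall was not uniform, since HNF4A, the hepatocyte transcription factor, had 62.0 ± 14.3 CPM in mitotic and 106 ± 16.5 CPM in other cells, a smaller difference of -0.79. Fewer cells that express a gene and less of its RNA in each cell cannot be told apart in these sums.

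The largest falls by the rule for naming were those of GRM3 and GLYAT. GRM3, a glutamate receptor, had 2.75 CPM in mitotic and 37.4 CPM in other cells on average (log2 -3.78), and GLYAT, which conjugates acyl groups to glycine, 3.12 CPM in mitotic and 37.0 CPM in other cells (log2 -3.77). ONECUT1, a hepatocyte transcription factor also called HNF6, averaged 7.38 CPM in mitotic and 84.3 CPM in other cells (log2 -3.56). ASGR1, a subunit of the asialoglycoprotein receptor, had 0, 3.81 and 17.9 CPM in mitotic cells against 49.8, 60.8 and 79.0 CPM in other cells. AFM, whose promoter is printed above, had 1.04, 6.10 and 106 CPM in mitotic cells, against 153, 201 and 246 CPM in other cells. Both ASGR1 (log2 -3.44) and AFM (-3.39) were without overlap, but the highest mitotic sum of AFM was far above its median. The transporters SLC22A25 (-3.72) and SLC17A4 (-3.40), the serine protease HABP2 (-3.56), the acyl-CoA hydrolase ACOT12 (-3.51) and the glucuronosyltransferase UGT2B15 (-3.41) completed the 10 largest falls. UGT2B15 belongs to a family of near-identical genes, so its reads may be shared. PCK1, the first committed enzyme of gluconeogenesis, fell by 3.56 and CYP3A4, a drug-metabolizing cytochrome, by 3.21 on the log2 scale.

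In the gene tests, markers of the other liver cell types did not rise as groups. Of 11 biliary and progenitor markers tested 8 fell and none rose (median log2 -0.95), with SPP1 at -1.56 and PROM1 at -1.31, and without run 3 only 1 of 10 fell. Of 13 stellate and fibroblast markers 3 rose and 2 fell (median 0.03), and 3 rose and 4 fell with TMM factors. Their summed level was 432, 663 and 834 CPM in mitotic cells and 406, 609 and 714 CPM in other cells. It was higher in mitotic than in other cells in 6 of 10 cultures. On the per-cell scale of the score, their sum had a median of 5.10 in mitotic and 3.42 in other cells. In the mitotic cells of runs 3, 4, 5 and 6 the medians were 5.12, 3.95, 8.80 and 6.81. The other cells of those runs had 3.74, 3.13, 3.91 and 2.46, and this per-cell difference was not tested. The fall of DCN, a matrix proteoglycan, had an adjusted p of 0.0498, which was 0.111 without the culture block, and FBN1, a microfibril protein, rose by 0.61. ACTA2 and RGS5 of the same list averaged 49.8 and 94.3 CPM in mitotic cells, against 34.7 and 63.8 CPM in other cells. Endothelial markers summed to 38.6 to 67.5 CPM in mitotic and 57.7 to 93.8 CPM in other cells, and leukocyte markers to 11.1 to 26.7 CPM in mitotic and 13.6 to 31.7 CPM in other cells. Of 4 endothelial and 3 leukocyte markers tested 1 rose and 4 fell, and with TMM factors none rose and 5 fell. The endothelial marker KDR had 40.5 CPM in mitotic and 60.5 CPM in other cells, and PECAM1 5.94 in mitotic and 8.28 in other cells. CD68, of the leukocyte list, had 14.9 CPM in mitotic and 17.7 CPM in other cells. Most other markers of both lists were near 0 in both classes. CD3E, MS4A1, NKG7 and CDH5 were at 0 CPM in mitotic cells and at most at 0.0904 CPM in other cells, PTPRC at 0.312 CPM in mitotic and 0.309 CPM in other cells, MARCO at 0.236 in mitotic and 0.0910 in other cells, VWF at 0.966 in mitotic and 0.375 in other cells, and STAB2 at 1.96 in mitotic and 0.931 in other cells.

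RNAs that report on the nucleus and the mitochondria moved less. Of 13 mitochondrially encoded mRNAs 1 rose, MT-ND6 by 0.32 on the log2 scale, and none fell, whereas with TMM factors 4 fell. Their summed level was 14589 to 24489 CPM in mitotic and 15448 to 21088 CPM in other cells. Of 7 nuclear-retained RNAs tested 4 fell and 2 rose. NEAT1, the scaffold of paraspeckles, averaged 3532 CPM in mitotic and 6532 CPM in other cells (log2 -0.90), and SNHG14, a host transcript of small nucleolar RNAs, fell by 0.98.

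Mitotic cells differed among themselves. In the 126 mitotic cells with the highest scores the spindle genes summed to a median of 137 UMIs per 10,000, against 71.1 in the 126 with the lowest scores. The histone genes had the opposite order, at 1.80 in the highest-scoring and 3.63 UMIs per 10,000 in the lowest-scoring set, and so did the S phase genes, at 17.5 in the highest-scoring and 22.1 in the lowest-scoring set. A histone sum above 4.57 UMIs per 10,000, the 95th percentile of all ranked cells, was found in 151 mitotic cells (30.1%) and in 208 other cells (3.12%). The hepatocyte markers summed to 19.9 UMIs per 10,000 in the highest-scoring and 24.2 in the lowest-scoring set. No test was made of these sets, because the score defined them.

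Hepatocyte RNA was lower in the mitotic than in the other cells of every run. Per cell, the hepatocyte markers had medians of 22.4, 22.5, 25.1 and 17.6 UMIs per 10,000 in the mitotic cells of runs 3, 4, 5 and 6, against 61.1, 89.0, 146 and 135 in the other cells of those runs. In the summed levels of the 10 cultures, mitotic cells had 1866 to 6932 CPM in run 3, 4090 CPM in run 4 and 11981 CPM in run 5, against 11901 to 18007 CPM, 20097 CPM and 21291 CPM in other cells, so the sums spread more widely over cultures in mitotic than in other cells, whereas the medians per cell spread less over runs. The spindle genes had medians of 96.9, 95.9, 81.0 and 94.0 UMIs per 10,000 in the mitotic cells of runs 3, 4, 5 and 6. Runs 5 and 6 gave only 27 and 10 mitotic cells, and the difference between runs was not tested.

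The share of mitotic cells differed widely between run numbers. Run 3 gave 412 mitotic cells of 3351 ranked cells (12.3%), run 4 gave 53 of 2330 (2.27%), run 5 gave 27 of 942 (2.87%) and run 6 gave 10 of 505 (1.98%), while run 1 gave 0 of 44 cells, which allows a share of up to 6.82% (3 counts; the exact 95% upper bound is 8.04%). Run 3 thus held 82.1% of the mitotic cells and 46.7% of the ranked cells. By contrast, the 8 libraries, which are aliquots of 1 pool, gave shares of 6.13 to 7.77%. Within DMSO cultures the share was 8.40% in run 3, 0% in run 4, 2.57% in run 5 and 2.15% in run 6, so vehicle cultures alone covered a wide range.

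Treatments were therefore set against DMSO both over all cultures and within a run. Cultures with 0.001 µM tunicamycin, an inhibitor of N-glycosylation, had shares of 16.4% in run 3 and 0.485% in run 4, those with 0.01 µM had 10.8% and 1.43%, and those with 0.1 µM had 13.1% and 2.15%. With the topoisomerase II poison etoposide the shares in runs 3 and 4 were 15.1% and 1.23% at 0.25 µM, 10.5% and 1.10% at 2.5 µM, and 3.37% and 7.12% at 25 µM. With cycloheximide, an inhibitor of translation, they were 12.9% and 1.45% at 0.2 µM and 1.70% and 2.68% at 2 µM. Of these treatments, 6 exceeded the highest DMSO share, 8.40% in run 3, and all 6 did so in run 3 and not in run 4. Against the DMSO culture of the same run, all 6 were higher in 2 of 2 runs. The DMSO culture of run 4 had 0 mitotic cells of 127, so any culture with 1 mitotic cell was higher there. In run 4 the 6 treated cultures had 1 to 4 mitotic cells each and were higher by 0.485 to 2.15 points. Their ranked cells had medians of 15942 to 70707.5 UMIs, against 17080 in that DMSO culture. Troglitazone, an agonist of PPARγ, gave 6 mitotic cells of 50 in run 3. Its shares were 2.20, 3.92 and 2.42% in runs 4, 5 and 6. Troglitazone was above the DMSO culture of the same run in 4 of 4 runs, counting run 4 with its 0 mitotic DMSO cells. Media gave 12.7, 2.58 and 0.813% in runs 3, 5 and 6, above the DMSO culture of the same run in 2 of 3 runs.

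No treatment was called different from DMSO by the two-sided exact permutation test, which did not use the run. Shares differed widely between runs, with an SD of 3.59 points over the DMSO cultures. Treatments with 2 cultures had them in runs 3 and 4 and were set against DMSO of runs 3 to 6. The test therefore cannot tell the absence of a treatment difference from one hidden by the spread between runs. The mean share was 5.14% with troglitazone and 3.28% with DMSO, a difference of 1.85 percentage points (n = 4 each, exact p = 0.543), and 5.37% with media, a difference of 2.09 points (n = 3 against 4, exact p = 0.543). For the 8 treatments with 2 cultures the differences lay between -1.09 points (2 µM cycloheximide) and 5.16 points (0.001 µM tunicamycin), and the exact p between 0.467 and 0.8. Over the 10 treatments tested, the Benjamini-Hochberg adjusted exact p was 0.741 to 0.8. Cultures with under 30 ranked cells, all of run 1 and media in run 4, were left out. With 2 cultures against 4 the smallest p that the test can give is 0.0667, and with 4 against 4 it is 0.0286. Brefeldin A and tBHQ had 1 culture per dose, all in run 4, and no test. Their shares were 0, 1.05 and 3.25% with brefeldin A at 0.001, 0.01 and 0.1 µM, and 6.40, 0 and 0% with tBHQ at 3, 30 and 300 µM, against 0 of 127 cells in the DMSO culture of run 4, which allows a share of up to 2.36% (3 counts; the exact 95% upper bound is 2.86%). That DMSO culture had a median of 17080 UMIs per ranked cell, against 36388.5 to 91774 in the brefeldin A and tBHQ cultures of run 4.

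**Figure D4:**
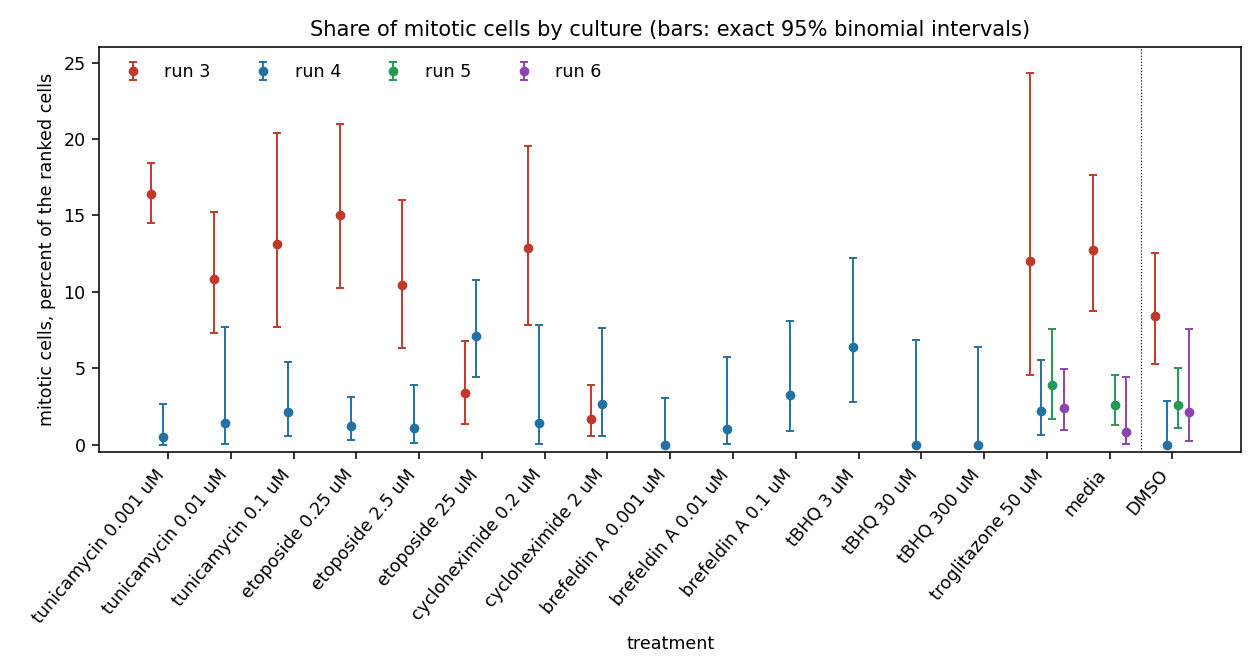
Share of mitotic cells among the ranked cells of each culture (y axis, percent, with exact binomial 95% intervals that cover counting error only), by treatment and dose, colored by run. Run 3 cultures reach 16.4% and most cultures of the other runs lie below 4%.

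The RNA of the mitotic cells themselves was compared between treatments over cultures with at least 5 mitotic cells, in 1 edgeR fit with 14398 genes tested. Against the DMSO cultures of runs 3 and 5, 25 µM etoposide (runs 3 and 4) and media (runs 3 and 5) each had 0 genes called (0.0%), although 654 and 243 genes had an unadjusted p under 0.05. Troglitazone (runs 3, 5 and 6) had 1 gene called (0.00695%), with 750 genes at an unadjusted p under 0.05. That gene was FABP4, a fatty acid carrier and a known PPARγ target. Mitotic cells had 176, 226 and 37.6 CPM of FABP4 with troglitazone in runs 3, 5 and 6 (61, 130 and 7 UMIs), against 1.88 and 0 CPM with DMSO in runs 3 and 5 (2 and 0 UMIs). The troglitazone culture was the higher one within run 3 and within run 5, and the fitted log2 fold change was 6.89 ± 0.87 (SE, adjusted p = 0.00288 by edgeR). Pooled over cultures, the ratio of FABP4 UMIs was 144 (exact 95% interval 39.4 to 1199, counting error only). In the other cells of the same cultures the log2 fold change was 5.59 ± 0.54 (adjusted p = 0.0113 by edgeR). Without troglitazone run 5 the adjusted p in mitotic cells was 0.0973. With the run number as a replicate block, an alternative added after seeing the data, 1 gene rose and 1 fell with etoposide, 1 rose with media, and 9 rose and 5 fell with troglitazone, where FABP4 had an adjusted p of 9.24e-05.

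With 25 µM etoposide, which leaves TOP2A bound to broken DNA, 0 of 29 CDK inhibitors and p53 targets were called in mitotic cells. Of these, 9 had an unadjusted p under 0.05 by edgeR, all with higher levels, and the median of the list was 0.47 on the log2 scale against -0.099 over all genes. MDM2 had 3377 and 3092 CPM in mitotic cells with etoposide (runs 3 and 4), against 2349 and 1400 CPM with DMSO (runs 3 and 5), with a log2 difference of 0.79 and an adjusted p of 0.902 by edgeR. CDKN1A had 168 and 153 CPM with etoposide and 88.6 and 129 CPM with DMSO. For both genes the etoposide cultures lay above the DMSO cultures, but neither passed the adjustment over all genes. In the other cells of the same cultures the log2 differences were 0.49 for MDM2 and 0.25 for CDKN1A, and neither was called. In mitotic cells they were 0.79 and 0.57. A term for the difference between the etoposide effects in mitotic and in other cells was called for 3 of 18446 genes (0.0163%), COL3A1, HS6ST3 and KCND3.

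**Figure D5:**
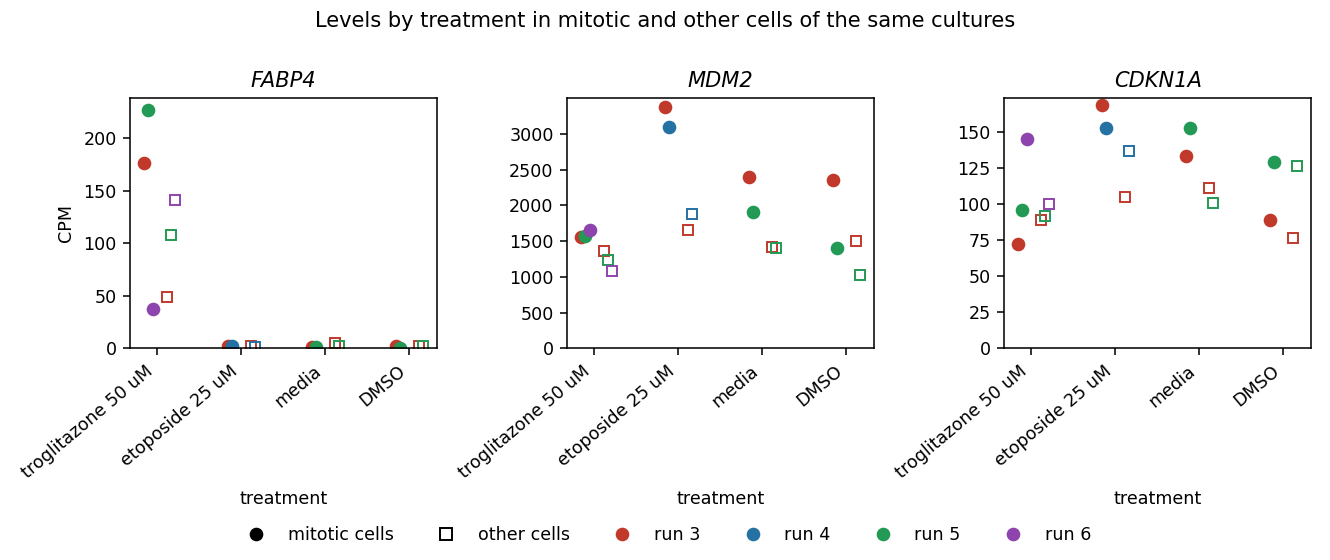
Levels of FABP4, MDM2 and CDKN1A (y axis, CPM, linear from 0) by treatment in the mitotic cells (filled circles) and the other cells (open squares) of cultures with at least 5 mitotic cells, colored by run, with DMSO at the right. In mitotic cells FABP4 is at 37.6 to 226 CPM with troglitazone and at 0 and 1.88 CPM with DMSO, and MDM2 is at 3092 and 3377 CPM with 25 µM etoposide and at 1400 and 2349 CPM with DMSO.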

How the data were processed

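Single-cell RNA of HepaRG cultures was measured in 1 Parse Evercode experiment of 8 libraries. The authors deposited a matrix of UMI counts per gene and cell, made from reads aligned to GRCh38 per the submitters' processing notes, with tables of cells and genes. The labels and the methods read here name neither the aligner nor the annotation. The deposited matrix held 1002686268 UMIs over 62703 genes. Cells were filtered and scored as the report describes, no doublets were removed, and UMIs were summed per culture and class. The cells, gene lists and tests were chosen with earlier results of these data known.

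Sums were tested with edgeR 4.0.16 in R 4.3.3 (glmQLFit and glmQLFTest on total-count scaling, genes kept by filterByExpr, adjusted p under 0.05). Mitotic and other cells were compared with the culture as a block, and treatments were compared over mitotic cells with treatment as the only term. Shares were compared with exact permutation tests in scipy 1.17.1, and medians of UMIs and genes per cell with 100000 sign flips. Intervals of shares are exact binomial at 95% and, like the limit of 3 counts behind a share of 0, cover counting error only. Named genes are the 20 with the largest rise and the 10 with the largest fall among protein-coding genes with at least 20 CPM in the higher class and 1 direction in every culture, plus the 3 largest changes of each list, except 1 gene that is not reported here. CDK1, CCNA2, BUB1B, CDC27, MDM2, CDKN1A, ALB, HNF4A and the members that went against their list or were not called were named after their values were seen. Coordinates of genes are those of GENCODE 44 and promoters those of RefSeq (GRCh38.p14). On simulated counts with 19873 genes, the test of mitotic against other cells recovered 26, 74, 94 and 100% of genes changed 1.5-, 2-, 4- and 8-fold. It also called 12 unchanged genes. The simulation gave all genes the same spread and had no differences between cultures, so recovery in the real counts may differ. Alternatives were TMM factors, DESeq2 1.42.0, no filter, no block, other limits of the score and of cells per culture, thinning to 5000 UMIs, and leaving out runs or cultures.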

Additional observations from a re-analysis of the deposited data

Results flagged for a closer look

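In 2 treatments the share of mitotic cells lay on opposite sides of DMSO in the 2 runs that had them. With 2 µM cycloheximide the share was below that of DMSO by 6.70 percentage points in run 3 (a difference of -6.70) and above it by 2.68 points in run 4. With 25 µM etoposide the difference was -5.03 points in run 3 and 7.12 points in run 4. Media, with 3 runs, also changed sign, at 4.31 points in run 3, 0.0038 in run 5 and -1.34 in run 6. There was 1 culture per run and treatment, and the difference between the runs was not tested. The DMSO culture of run 4 had 0 mitotic cells of 127, so any share above 0 is a positive difference there. Its ranked cells also had a lower median of UMIs, 17080. In run 4 that median was 46597 with 25 µM etoposide and 44270.5 with 2 µM cycloheximide. Whether depth bears on these differences was not tested.

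For 3 of 18446 genes (0.0163%) the difference between 25 µM etoposide and DMSO was not the same in mitotic as in other cells, by an interaction term in edgeR chosen after seeing the data. COL3A1, a fibrillar collagen, differed by -3.86 ± 0.54 on the log2 scale (SE, adjusted p = 0.0055), with 5.10 and 6.84 CPM in mitotic cells with etoposide and 37.7 and 259 CPM with DMSO. In other cells it had 65.1 and 53.1 CPM with etoposide and 39.5 and 107 CPM with DMSO, so the largest single value was that of 1 DMSO culture. HS6ST3, a heparan sulfate sulfotransferase, differed by 3.28 ± 0.43 (adjusted p = 0.00483), with 166 and 77.3 CPM in mitotic cells with etoposide and 9.42 and 19.9 CPM with DMSO. KCND3, a potassium channel, differed by 2.81 ± 0.46 (adjusted p = 0.0384), with 104 and 69.4 CPM in mitotic cells with etoposide and 19.8 and 9.07 CPM with DMSO. Each group had 2 cultures with few mitotic cells.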

How the results depend on the processing

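The class is the top of a continuous score, 82.1% of its cells are of run 3, and few cultures outside run 3 had enough mitotic cells to test. Without run 3, 925 genes rose and 837 fell over 2 cultures, of which 1708 were called the same way with all 10 cultures. The 2 DMSO cultures with at least 5 mitotic cells, an alternative added after seeing the data, gave 1110 rises and 978 falls. There the log2 values of PROM1 and PDGFRA changed sign, to 0.13 (adjusted p = 0.962) and 0.15 (adjusted p = 0.949), and without run 3 those of H2BC4 and H2BC18 did, to 0.30 and 0.017. TMM factors moved the median of all genes by -0.12 on the log2 scale and made 3402 rises and 6234 falls (35.3% of calls higher, against 48.8%). The remaining alternatives kept both counts within 1.5 times. A fit of DMSO cultures with at least 10 mitotic cells was not run, since only 1 had them.

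Between treatments the calls depended on the filter and on single cultures (edgeR). Without a filter on low counts, 17 genes rose and 28 fell with 25 µM etoposide, 5 rose and 4 fell with media, and 31 rose and 29 fell with troglitazone. Leaving out 1 culture at a time gave 0 to 4 falls with etoposide, 0 to 1 with media and 0 to 11 with troglitazone, and 0 to 4 rises with troglitazone. The 4 etoposide and 11 troglitazone falls came without DMSO run 3. FABP4 was higher with troglitazone in each fit, with an adjusted p of 1.19e-14 (no filter) to 0.0973 (without troglitazone run 5, which ended the call). Its log2 fold change was 6.30 to 7.29, apart from the fit without DMSO run 3, where the DMSO culture left had 0 UMIs and no fold is given. With the run number as a replicate block, which pairs cultures only by a number of unknown meaning, 1 gene rose and 1 fell with etoposide, 1 rose with media and 9 rose and 5 fell with troglitazone. No exact p of a share was under 0.05 in the alternatives, but with 2 cultures a treatment the test cannot give one, so this says nothing about stability.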

Other observations

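Cells outside the ranking also reached the lowest score of a mitotic cell, 1.10. Among cells of the ranked cultures with over 20% mitochondrial UMIs, 274 of 3937 did (6.96%, exact 95% interval 6.18 to 7.80). In the DMSO cultures alone, 7 of 151 such cells did (4.64%, 1.88 to 9.32), against 31 of 783 cells (3.96%, 2.71 to 5.57) under the mitochondrial limit. In rotenone cultures 55 of 1477 cells reached that score (3.72%), and with 20 µM cycloheximide 10 of 390 did (2.56%). These values have no test.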
